A study of Mus musculus with 12 samples.

Results

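The miR-199 and miR-214 miRNAs were examined in mitochondria isolated from the hearts of wild-type (WT) and db/db mice. The group was chosen by name, with earlier results of these data known. It held 5 of the 932 rows of the table: mmu-miR-199a-5p, mmu-miR-199a-3p, mmu-miR-199b-5p, mmu-miR-214-3p and mmu-miR-214-5p (the prefix for mouse is left out below). The small RNA libraries comprised 6 of each genotype. db/db mice carry a mutation of the leptin receptor gene and are an obese model of type 2 diabetes. All 12 carried the same label for the fraction, mitochondrial microRNA from heart, and gave no treatment, age or genetic background. The labels number the samples 1 to 6 within each genotype and do not state whether these are separate animals. The p-values here therefore set the genotype difference only against the spread between these samples, which could be technical, and may not extend to animals. All libraries are of this 1 fraction, so whether these miRNAs lay inside mitochondria was not measured.

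A miRNA hairpin is cut into a 5p and a 3p arm, of which usually 1 is kept by Argonaute and the other is degraded. The kept arm finds its targets mainly through its seed, bases 2 to 8 from the 5′ end. miR-199a and miR-214 are known from mesenchymal cells such as fibroblasts, where the transcription factor Twist1 drives their shared noncoding host transcript. In the heart, miR-199a-5p is known to repress Hif1a and Sirt1, miR-199a-3p to promote the division of cardiomyocytes, and miR-214 to repress the sodium-calcium exchanger and limit calcium overload.

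RefSeq (GRCm38.p6) held a mature sequence for 4 of the 5 members. These are shown 5′ to 3′ with the seed in capitals, because the seeds tell which members could share targets.
miR-199a-5p: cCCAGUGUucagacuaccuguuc
miR-199a-3p: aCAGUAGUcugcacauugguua
miR-214-3p: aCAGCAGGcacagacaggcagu
miR-214-5p: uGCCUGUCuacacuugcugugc
These 4 seeds differ from one another. Among the 635 of 730 named rows with a RefSeq mature sequence, a set without miR-199b-5p, the only other row with any of these seeds was miR-199b-3p. The 5p arms of miR-199a and miR-199b are known to share a seed. The mature sequence of miR-199b-3p is identical to that of miR-199a-3p over all 22 bases.

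The members come from 4 hairpins. In GRCm38 coordinates, which are not those of the build of the table (GRCm39), Mir199a-2 lies at chr1:162217814-162217923 and Mir214 at chr1:162223368-162223477, both on the plus strand. They are separated by 5444 bases. In GENCODE M21 both lie in exons of the noncoding RNA Dnm3os and, on the opposite strand, in an intron of Dnm3. Mir199a-1 lies at chr9:21496495-21496564 on the minus strand, opposite an intron of Dnm2. Mir199b lies at chr2:32318460-32318569 on the plus strand, opposite an intron of Dnm1. The 2 hairpins under Dnm3os are shown because they give rise to miR-214 and to 1 of the copies of miR-199a, with the annotated mature arms in capitals.
Mir199a-2: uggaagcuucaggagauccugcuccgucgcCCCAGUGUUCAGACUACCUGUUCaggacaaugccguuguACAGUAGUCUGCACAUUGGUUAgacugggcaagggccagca
Mir214: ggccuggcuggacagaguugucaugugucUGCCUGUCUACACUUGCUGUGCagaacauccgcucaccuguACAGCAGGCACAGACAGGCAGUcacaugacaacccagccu
miR-199a-5p can come from 2 loci, and the 3p sequence shared by miR-199a and miR-199b from 3. The miR-214 arms come from the 1 hairpin Mir214.

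Values are in RPM, the reads of a row per 1000000 reads of all listed rows. Recovered library totals ranged from 412749 to 1382046 reads, so 3 reads, the most that a value of 0 allows, were worth 2.17 to 7.27 RPM. WT library 4 and db/db library 6 were the shallowest (551591 and 412749 reads) and held the largest percentage in rows without a miRNA name (0.160 and 0.157%). Results are also given without this pair. Heart muscle miRNAs dominated: the 6 cardiomyocyte markers summed to 372000 to 424702 RPM in WT and 341273 to 443346 RPM in db/db libraries. The liver miRNA miR-122-5p was at 0 in 8 of 12 libraries. Whether the 5 miRNAs came from fibroblasts could not be checked, since small RNA tables hold no fibroblast mRNA. In such bulk samples, fewer cells of a type and less RNA per cell cannot be told apart.

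All 5 members were above 0 in every library and all 5 passed the filter on low values, a mean of at least 1 RPM. Together they summed to 4454 ± 619 RPM in the 6 WT and 4380 ± 355 RPM in the 6 db/db libraries (mean ± SD), or 0.445% and 0.438% of reads. The 3p arm of miR-199a made up most of this sum, 55.8% ± 2.81 in WT against 59.0% ± 6.24 in db/db (mean ± SD over 6 libraries). miR-214-3p made up 10.2% ± 3.07 in WT and 14.2% ± 5.18 in db/db libraries, and miR-214-5p 1.21% ± 0.680 and 0.581% ± 0.345. The 2 sums differed by less than the SD of either genotype, while the shares of the members varied between libraries.

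**Figure D1:**
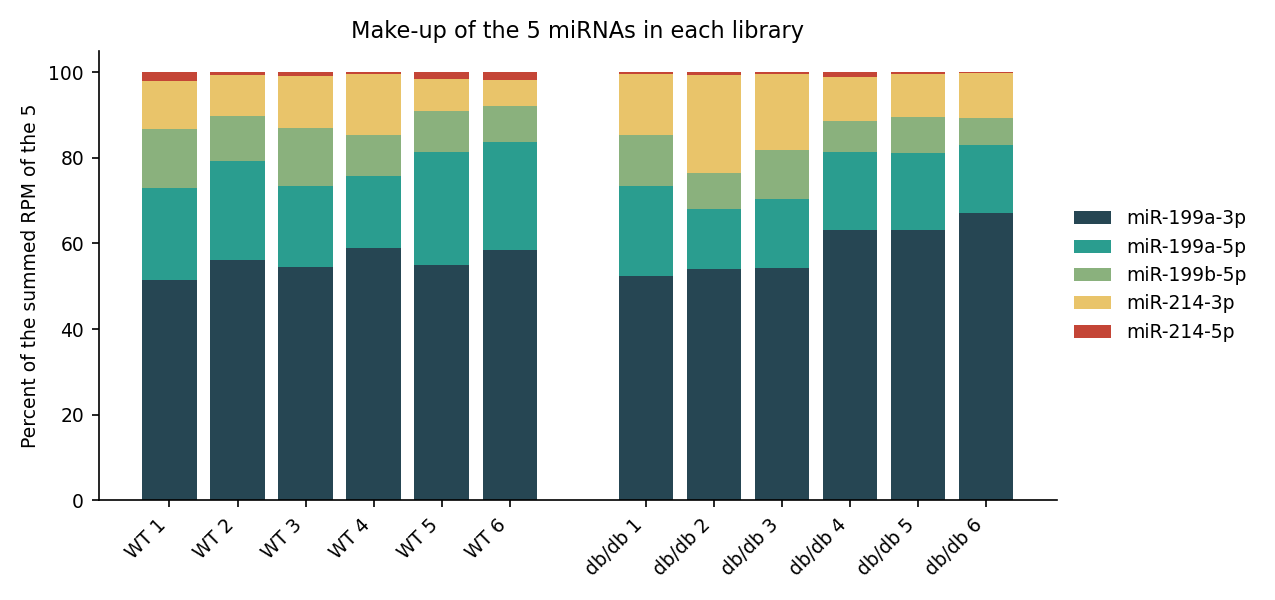
Stacked bars give the share of each of the 5 miRNAs in their summed RPM (percent, y axis) in each of the 12 libraries (x axis). miR-199a-3p is the largest part in every library, miR-214-3p reaches its largest share, 22.9%, in db/db library 2, and miR-214-5p is a thin band of at most 2.05%.

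The levels of miR-199a-3p, miR-199a-5p, miR-199b-5p and miR-214-5p stood in this order, from high to low, in all 12 libraries, while the place of miR-214-3p varied; the mature forms with a sequence are 22 or 23 bases long, so RPM was compared directly. miR-199a-3p exceeded miR-199a-5p in 12 of 12 libraries, by 1.57 ± 0.34 on the log2 scale (SD over libraries). miR-199a-5p in turn exceeded miR-199b-5p in 12 of 12 libraries (1.00 ± 0.38, log2, SD) and miR-214-3p in 10 of 12, the exceptions being db/db libraries 2 and 3. For the next neighbours, miR-214-3p and miR-199b-5p, the order split by genotype. miR-214-3p was the higher in 1 of 6 WT and in 6 of 6 db/db libraries, and the log2 ratio of miR-214-3p to miR-199b-5p averaged -0.12 ± 0.38 in WT and 0.64 ± 0.46 in db/db (SD). This split was noticed in the values and was not tested. miR-214-5p was the lowest in every library, 3.95 ± 1.30 below miR-214-3p on the log2 scale (SD). Among all rows of a library, miR-199a-3p ranked 42nd to 49th by abundance, miR-199a-5p 61st to 79th, miR-214-3p 66th to 110th, miR-199b-5p 75th to 110th and miR-214-5p 163rd to 316th.

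The labels set db/db against WT, which asks how these miRNAs differ in heart mitochondria of a diabetic model. In a limma fit to log2(RPM + 1) over 646 rows, 0 of the 5 members passed at a Benjamini-Hochberg adjusted p under 0.05, as against 0.155% of all rows tested (1 row). At an unadjusted p under 0.05 there were 3 of the 5, as against 8.98% of all rows: miR-199a-5p and miR-214-5p with a lower level in db/db (4.64% of all rows) and miR-214-3p with a higher one (4.33%). That count of 3 depended on the setting and on single libraries. It was 0 without the abundance trend and without WT library 5, WT library 6 or db/db library 3. It was 1 without WT library 2 or 3 or db/db library 1, 2 or 6, and also at a pseudocount of 0.1 RPM, unfiltered, at filters of 10 or 100 RPM, and with median-of-ratios or quantile scaling. On reads recovered from the RPM values, edgeR also called 0 of the 5 (0.464% of all rows were called), with 2 at an unadjusted p under 0.05 (24.6% of all rows). DESeq2 called 0 of the 4 to which it gave an adjusted p (4.71% of the 170 rows with one were called), with 1 of the 5 at an unadjusted p under 0.05 (6.97% of all rows). The median log2 fold change of the 646 rows was -0.04. The limma fit was also run on simulated data with the real levels and library sizes. Among rows averaging 100 RPM or more it found 5 of 12 changed 1.5-fold, 11 of 17 changed 2-fold and 18 of 18 changed 4-fold. Over rows of all levels it found 6 of 67, 13 of 67 and 21 of 66. miR-214-5p, at a mean of 39.3 RPM, lay below 100 RPM. In the simulation 40 of the 646 rows were called, as against 1 in the data, so its adjusted threshold was easier to pass.

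miR-199a-5p, the arm that targets Hif1a and Sirt1, was at the lower level in db/db libraries without passing the test. In WT it ranged from 656 to 1105 RPM with a median of 1070. In db/db libraries it ranged from 580 to 902 RPM with a median of 792. Each of the 6 db/db values was under the WT median, but the groups overlapped, since WT libraries 1 and 4 lay below the highest db/db library. The WT mean was 977 ± 179 RPM and the db/db mean 756 ± 131 RPM (± SD over 6 libraries). The limma log2 fold change was -0.36 with an SE of 0.18 (unadjusted p = 0.0428, adjusted p = 0.543). With WT library 4 and db/db library 6 left out it was -0.42 (limma adjusted p = 0.496).

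miR-199a-3p, the most abundant member, stood at nearly the same level in both genotypes. It ranged from 2067 to 3057 RPM in WT (median 2427) and from 2227 to 3022 RPM in db/db libraries (median 2594). The limma log2 fold change was 0.06 with an SE of 0.14 (adjusted p = 0.883), and the groups overlapped over most of their range. This row and that of miR-199b-3p held almost the same reads in each library. They differed by 0 to 33 reads, at most 1.56% of the miR-199a-3p reads, and miR-199a-3p had the more in 11 of 12 libraries with db/db library 3 equal. Reads of the shared 3p sequence thus appear to be counted in both rows, and the output of the 3 loci cannot be told apart in them.

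miR-199b-5p, the 5p arm of the hairpin opposite Dnm1, ranged from 367 to 756 RPM in WT (median 438). In db/db libraries it ranged from 240 to 550 RPM (median 372). Library 3 was the highest of each genotype, and 3 db/db libraries lay below all WT libraries while 2 lay above the WT median. The means were 487 ± 149 and 394 ± 117 RPM (± SD over 6 libraries), with a limma log2 fold change of -0.31 and an SE of 0.21 (adjusted p = 0.717). The difference did not exceed the spread between libraries.

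miR-214-3p, the more abundant arm of the Mir214 hairpin, was at the higher level in db/db libraries without passing the test. It ranged from 263 to 683 RPM in WT (median 450) and from 409 to 942 RPM in db/db libraries (median 545). The high values came from db/db libraries 2 and 3, which lay above all WT libraries, while db/db libraries 1, 4, 5 and 6 lay within the WT range. The means were 456 ± 155 and 621 ± 220 RPM (± SD over 6 libraries). The limma log2 fold change was 0.45 with an SE of 0.22 (unadjusted p = 0.0434, adjusted p = 0.543). edgeR gave 0.51 (adjusted p = 0.135) and DESeq2 0.51 (adjusted p = 0.217). With WT library 4 and db/db library 6 left out the limma value was 0.63 (adjusted p = 0.240).

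miR-214-5p, the other arm of the same hairpin, was at the lower level in db/db libraries, the opposite direction to miR-214-3p, and also did not pass. It ranged from 12.7 to 82.4 RPM in WT (median 54.8) and from 9.69 to 53.0 RPM in db/db libraries (median 22.1). Again each of the 6 db/db values was under the WT median, but WT library 4 lay below 5 of them. These values rest on few reads: 54 in WT library 1, but 7 in WT library 4 and 4 in db/db library 6, the libraries with the fewest reads in all. The exact 95% Poisson interval was 5.10 to 26.1 RPM for WT library 4 and 2.64 to 24.8 RPM for db/db library 6, which covers counting error only. The means were 52.9 ± 26.9 and 25.6 ± 15.4 RPM (± SD over 6 libraries). The limma log2 fold change was -0.99 with an SE of 0.49 (unadjusted p = 0.0493, adjusted p = 0.551). Without these 2 libraries it was -1.12 (limma adjusted p = 0.478).

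**Figure D2:**
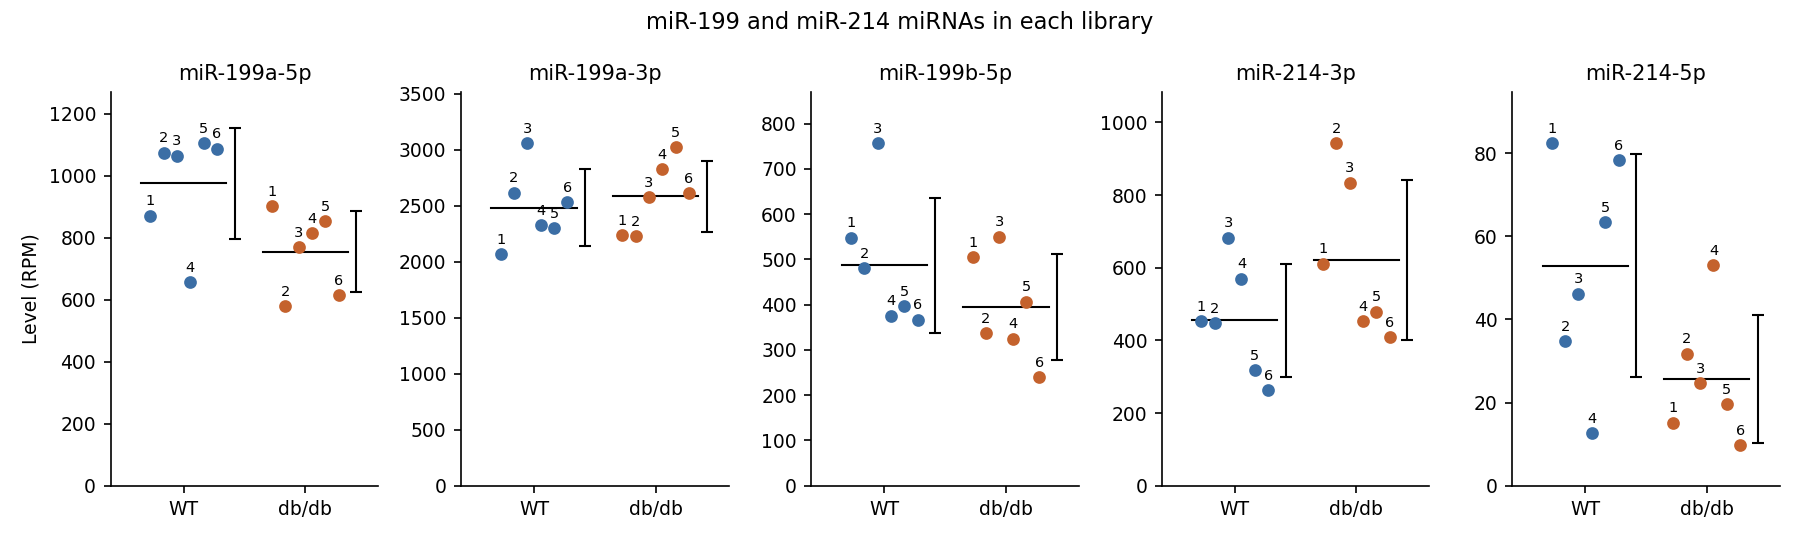
Points give the level (RPM, linear axis from 0) of each miRNA in the 6 WT (blue) and 6 db/db (orange) libraries, numbered by sample, with the mean as a line and ± SD as a bar. Both genotypes overlap in each panel, with all 6 db/db points below the WT median for miR-199a-5p and miR-214-5p and db/db libraries 2 and 3 at the top for miR-214-3p.

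**Figure D3:**
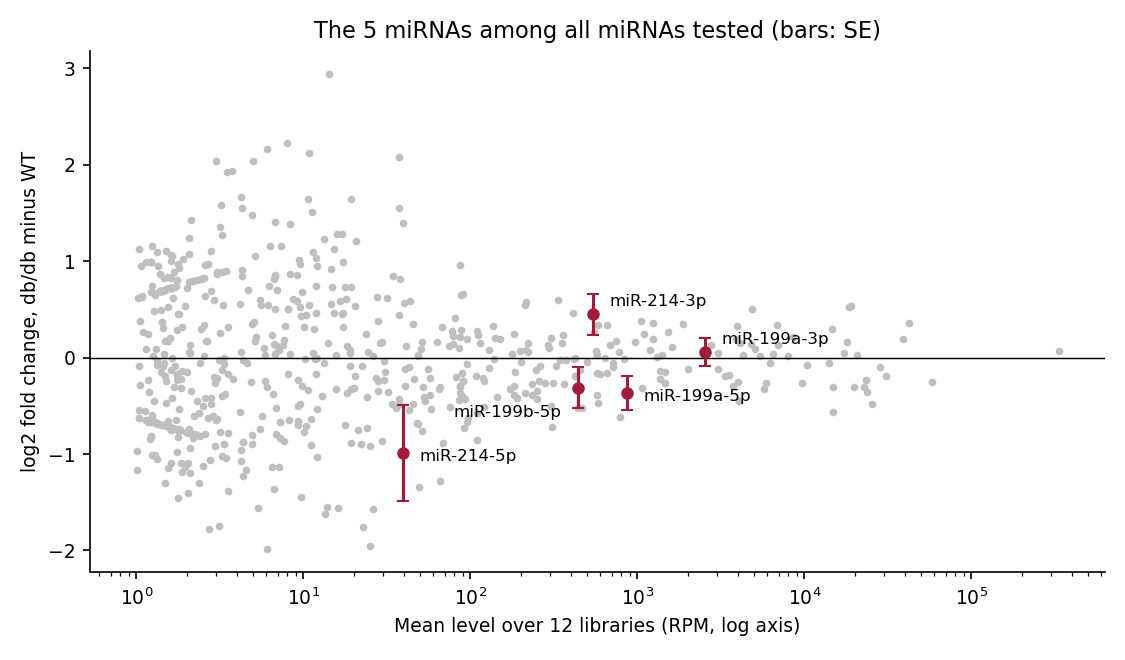
The log2 fold change of db/db minus WT (y axis) is plotted against the mean RPM over 12 libraries (log x axis) for the 646 rows tested (grey), with the 5 miRNAs in red and SE bars. They lie within the spread of rows of like abundance, miR-214-3p at 0.45 and miR-214-5p at -0.99.

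The balance of the 2 arms was then compared within each library, since a plain ratio of RPM values within a library does not depend on its scaling. Ranges and medians are of plain ratios. Differences and tests used log2 ratios with 1 RPM added to each value, so at low values they depend on that pseudocount. For the miR-214 arms the log2 difference was 1.47 with 0.1 RPM added and 1.22 with 10 RPM added. The ratio of miR-214-3p to miR-214-5p ranged from 3.36 to 44.9 in WT (median 9.18) and from 8.54 to 42.3 in db/db libraries (median 31.8). Of the 6 db/db ratios 5 lay above the WT median, with db/db library 4 below it, and WT library 4, which had 7 reads of the 5p arm, had the highest ratio of all. The difference on the log2 scale was 1.44 ± 0.64 (SE, n = 6 each), or 2.71-fold, and did not pass even before adjustment (exact permutation test, two-sided, unadjusted p = 0.0541). The unadjusted p was under 0.05 without WT library 4 (1.87, exact permutation p = 0.0108) and without db/db library 4 (1.76, exact permutation p = 0.0260). It was also under 0.05 with both WT library 4 and db/db library 6 left out (1.75, exact permutation p = 0.0238). Of the 12 ways to leave out 1 library, only leaving out WT library 4 or db/db library 4 gave an unadjusted p under 0.05, and the exact permutation p reached 0.108. With libraries paired by replicate number the unadjusted p was above 0.05 as well (exact sign-flip p = 0.156).

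The ratio of miR-199a-3p to miR-199a-5p differed in the same direction by less. It ranged from 2.08 to 3.54 in WT (median 2.40) and from 2.48 to 4.25 in db/db libraries (median 3.50). All 6 db/db ratios lay above the WT median and 4 WT ratios lay below every db/db ratio, with WT library 4 again the highest of its group. The difference on the log2 scale was 0.42 ± 0.15 (SE, n = 6 each), or 1.34-fold (exact permutation test, two-sided, unadjusted p = 0.0260). It did not pass after adjustment over the 4 ratios computed (exact permutation adjusted p = 0.104). With the 5p reads of miR-199b added to those of miR-199a, an alternative chosen after seeing the data that sets the shared 3p sequence against both 5p arms, the difference was 0.41 ± 0.16 (exact permutation p = 0.0281). For the ratio of miR-199a-3p to miR-199a-5p alone, the unadjusted p was above 0.05 without WT library 5 (0.36, exact permutation p = 0.0519).

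**Figure D4:**
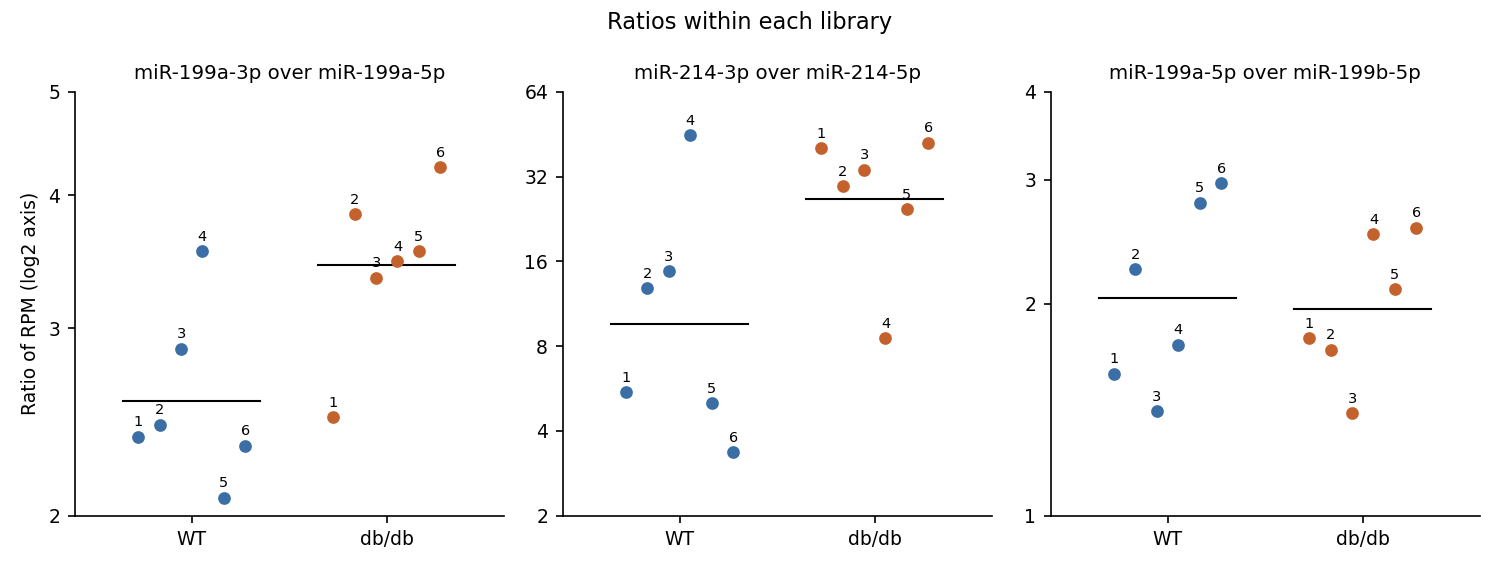
Points give the ratio of 2 RPM values within each library (log2 axes, each with its own range), numbered by sample, with the geometric mean of each genotype as a line. For both arm ratios 5 of 6 db/db points sit high and WT library 4 sits among them, while the ratio of miR-199a-5p to miR-199b-5p spans a like range in both genotypes.

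Among the 69 miRNAs with both arms at a mean of at least 10 RPM, 7 arm ratios had an unadjusted exact permutation p under 0.05, or 10.1%, and 0 passed after adjustment over all 69. Of the 3 pairs of miR-199 and miR-214, 1 was among the 7, miR-199a (exact permutation p adjusted over all 69, 0.358). The adjusted value for miR-214 was 0.421. The pair of miR-199b, whose 3p reads are those of miR-199a, stood at 0.37 ± 0.25 (SE; exact permutation p = 0.169, adjusted p = 0.647). In absolute size the shift of miR-214 ranked 8 among the 69 and that of miR-199a ranked 35.

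**Figure D5:**
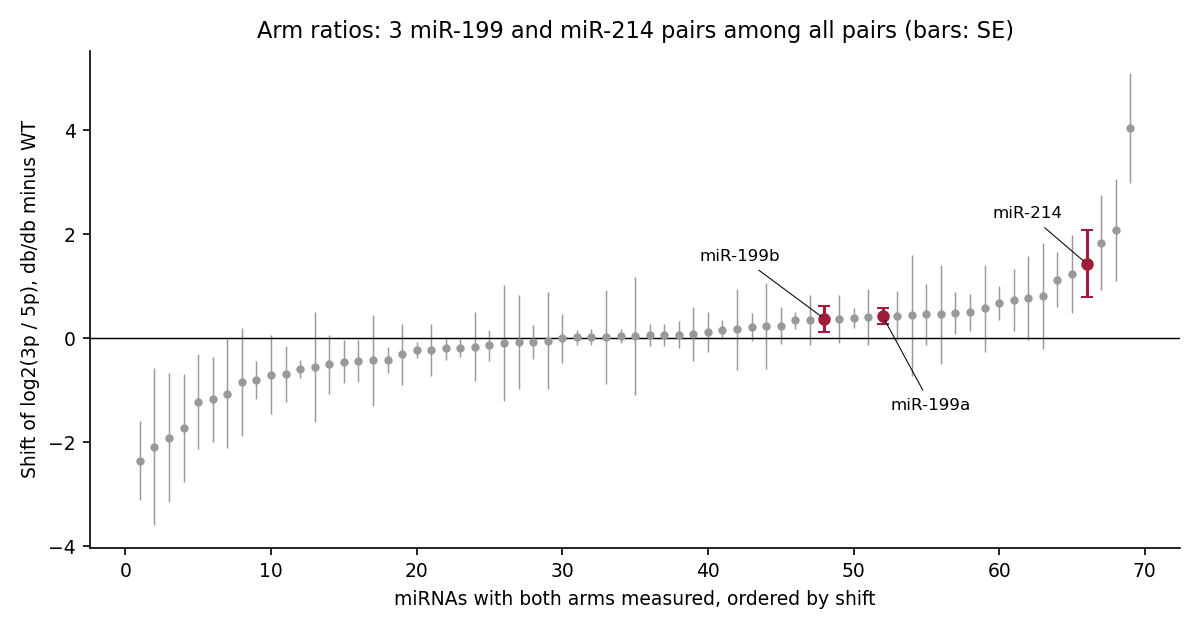
Each point is 1 of 69 miRNAs with both arms measured, ordered by the shift of log2(3p / 5p) from WT to db/db (y axis, bars SE). The miR-214 shift of 1.44 lies near the upper end with a wide bar, and miR-199a and miR-199b, at 0.42 and 0.37, lie among many pairs of like size.

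Ratios between loci gave no difference that passed. miR-199a-5p over miR-199b-5p, the 5p arms of separate loci, ranged from 1.41 to 2.97 in WT and from 1.40 to 2.57 in db/db libraries. The difference was -0.05 ± 0.23 on the log2 scale (SE; exact permutation p = 0.816). miR-214-3p over miR-199a-3p ranged from 0.104 to 0.245 in WT and from 0.157 to 0.423 in db/db libraries, where libraries 1 to 3 lay above all WT libraries. The difference was 0.39 ± 0.32 (SE; exact permutation p = 0.249). Adjusted over the 4 ratios computed, the exact permutation p was 0.104 for miR-199a-3p over miR-199a-5p, 0.108 for the miR-214 arms, 0.816 for the 5p arms and 0.332 for the 3p arms.

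How the members varied together was described by correlations of log2(RPM + 1) across the 12 libraries. Of the 10 pairs of members, from 1 hairpin or from several, 0 passed after adjustment and 1 had an unadjusted permutation p under 0.05. The highest was between miR-199a-5p and miR-214-5p (r = 0.62, permutation p = 0.0359, adjusted p = 0.279; rho = 0.61, permutation p = 0.0400, adjusted p = 0.400), and r was 0.61 without db/db libraries 2 and 6. Within WT r was 0.70 (exact p = 0.124) and within db/db 0.11 (exact p = 0.828), so the relation did not hold in each genotype. The lowest was between miR-199a-5p and miR-214-3p (r = -0.52, permutation p = 0.0837, adjusted p = 0.279; rho = -0.52, permutation p = 0.0837, adjusted p = 0.418). It was -0.53 without db/db libraries 2 and 6, -0.45 within WT (exact p = 0.324) and -0.26 within db/db libraries (exact p = 0.583).

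The 2 arms of miR-214 had a negative correlation over all libraries (r = -0.37, permutation p = 0.235, adjusted p = 0.534; rho = -0.35, permutation p = 0.268, adjusted p = 0.536). It was -0.45 without db/db libraries 2 and 3, -0.56 within WT (exact p = 0.256) and 0.28 within db/db libraries (exact p = 0.594). The arms of miR-199a gave r = 0.21 (permutation p = 0.498, adjusted p = 0.711; rho = 0.09, permutation p = 0.781, adjusted p = 0.886) and 0.13 without db/db libraries 2 and 6. It was 0.45 within WT (exact p = 0.411) and 0.33 within db/db (exact p = 0.504). miR-199a-5p and miR-199b-5p gave r = 0.54 (permutation p = 0.0656, adjusted p = 0.279; rho = 0.38, permutation p = 0.218, adjusted p = 0.536). That value fell to 0.23 without db/db libraries 2 and 6, so it rested on those libraries. Within WT it was 0.23 (exact p = 0.624) and within db/db 0.64 (exact p = 0.185). The remaining 5 pairs lay between -0.09 and 0.34 over all libraries, and some differed within genotypes. miR-199b-5p and miR-214-3p gave r = 0.34 (permutation p = 0.284, adjusted p = 0.534; rho = 0.43, permutation p = 0.169, adjusted p = 0.536), but 0.68 within WT (exact p = 0.136) and 0.53 within db/db (exact p = 0.286). It was 0.17 without WT library 3 and db/db library 6. miR-199a-3p and miR-214-3p gave r = -0.03 over all (permutation p = 0.936, adjusted p = 0.936; rho = -0.08, permutation p = 0.800, adjusted p = 0.886), 0.36 within WT (exact p = 0.499) and -0.65 within db/db (exact p = 0.179). That pair was at -0.26 without WT libraries 1 and 3.

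The rows most like each member were sought among 141 other named miRNAs with a mean of at least 100 RPM, by Pearson's r over the 12 libraries, given as a description. miR-214-3p was most like miR-320-3p (r = 0.86), followed by let-7d-3p (0.76) and miR-1839-5p (0.75). miR-199a-5p was most like miR-30e-5p (0.83), the endothelial miR-126a-5p (0.79) and miR-195a-5p (0.73). miR-199b-5p was most like miR-103-3p (0.81), miR-342-3p (0.78) and miR-146a-5p (0.76). miR-199a-3p had lower values, with miR-181c-5p (0.68), miR-126a-5p (0.59) and miR-22-5p (0.58). miR-126a-5p was the only miRNA to appear for more than 1 member. All values of a library share its depth and its scaling to a common total.

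Other miRNAs of fibroblasts, pericytes and smooth muscle were compared with the members. Of 8 listed, 0 passed by limma or edgeR, and 0 of the 6 with an adjusted p passed by DESeq2. By limma 4 had an unadjusted p under 0.05 (8.98% of all rows), by edgeR 3 (24.6%) and by DESeq2 3 (6.97%). By sign, 7 of the 8 were negative, with a median log2 fold change of -0.36 beside -0.04 over all rows, which was also below 0. Of these, 4 are arms of the cluster partners miR-143 and miR-145a and are not separate observations. The list was chosen with earlier results of these data known, and the signs were not tested. The limma log2 fold change was -0.48 ± 0.13 (SE) for miR-143-3p, the main smooth muscle miRNA, and -0.33 ± 0.14 for its cluster partner miR-145a-5p (adjusted p = 0.0869 and 0.504). miR-21a-5p, which is induced in fibroblasts under stress, stood at -0.45 ± 0.15 and miR-10b-5p at -0.53 ± 0.23 (SE; limma adjusted p = 0.198 and 0.504). The direction of miR-199a-5p, miR-199b-5p and miR-214-5p was that of these 4, the direction of miR-214-3p was the opposite, and miR-199a-3p stood near 0 (limma log2 fold change 0.06).

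Of 7 miRNAs described as profibrotic in the heart, 0 passed by limma or edgeR, and 0 of the 4 with an adjusted p by DESeq2. By sign, 5 were negative (limma median -0.45, beside -0.04 over all rows). An unadjusted p under 0.05 was given to 3 of the 7 by each tool, beside 8.98% of all rows by limma, 24.6% by edgeR and 6.97% by DESeq2. They include miR-21a-5p, already counted above. miR-34a-5p, a p53 target, was 1 of the 2 positive ones (limma log2 fold change 0.46, SE 0.21, adjusted p = 0.505). The largest shift of the list was that of miR-208a-3p, a negative one at a mean of 49.1 RPM (limma log2 fold change -1.34, SE 0.55, adjusted p = 0.504). Among those described as antifibrotic, 0 of 11 passed by limma, edgeR or DESeq2, with 2, 2 and 1 at an unadjusted p under 0.05 (against the same shares of all rows), and 6 were negative (limma median -0.06). The most abundant, miR-133a-3p, stood at 0.07 ± 0.11 (SE, limma adjusted p = 0.789). miR-29a-3p, which represses collagen genes, stood at 0.05 ± 0.13 (SE, limma adjusted p = 0.885). The 2 with an unadjusted p under 0.05 by limma were miR-24-3p at -0.36 ± 0.12 and miR-29c-3p at -0.52 ± 0.22 (SE, limma adjusted p = 0.198 and 0.504).

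Marker miRNAs of other cell types were summed in the same libraries, and in each list the genotypes overlapped. The 4 smooth muscle and pericyte markers, all negative, summed to 30743 to 44199 RPM in WT and 21295 to 35440 RPM in db/db libraries. All 4 were already counted above among the miRNAs of fibroblasts, pericytes and smooth muscle. The 2 endothelial markers, both negative, summed to 18852 to 29569 RPM in WT and 15588 to 25095 RPM in db/db. The 5 leukocyte markers, 2 of them negative, summed to 3308 to 5171 RPM in WT and 2981 to 6769 RPM in db/db. They include miR-155-5p, which was also among the profibrotic miRNAs. The 3 erythroid markers, 1 of them negative, summed to 895 to 1717 RPM in WT and 293 to 3852 RPM in db/db. Of these 14 markers 0 passed by limma and 0 by edgeR. DESeq2 called 1 of the 8 with an adjusted p, the myeloid miR-223-3p, at the lower level in db/db. An unadjusted p under 0.05 was given to 4 of the 14 by limma (8.98% of all rows), 3 by edgeR (24.6%) and 2 by DESeq2 (6.97%). Their part in the levels of the miR-199 and miR-214 members was not tested.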

How the data were processed

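The authors deposited 1 table of small RNA values named TPM. Libraries were made from total RNA by adapter ligation, cDNA synthesis, PCR and gel purification, per the labels' protocols. In each column the sum was 1000000 and every value a whole number of reads, scaled, so the deposited unit was read as RPM (reads per 1000000). Whole reads were recovered for 100% of values within 0.01 of a read. Per the submitters' processing notes, reads were placed on GRCm39. How they were aligned, and how reads matching several rows were counted, is not given in the sources used here, and neither is the annotation. The members and lists were chosen with earlier results of these data known.

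limma 3.58.1 (R 4.3.3), with an abundance trend, was fitted to log2(RPM + 1) of the 646 rows that averaged 1 RPM or more. Its two-sided p-values were adjusted by Benjamini-Hochberg and the threshold was 0.05. The design assumed TPM; the log-scale test was kept. edgeR 4.0.16 (TMM, quasi-likelihood test) and DESeq2 1.42.0 were run on the recovered reads. DESeq2 gave no adjusted p for 476 of 646 rows, miR-214-5p among them. Ratios were compared by exact permutation over 924 assignments, correlations with 100000 resamples, or exactly within a genotype. The limma fit was tested on simulated data. The chi-square per degree of freedom was at least 21.6 over the 66 pairs of libraries, so no libraries agreed within sampling noise. Named miRNAs were the members, the 3 most like each member of at least 100 RPM, and called or abundant members of each list. Those chosen after their values were seen were miR-10b-5p, miR-24-3p, miR-29c-3p, miR-34a-5p and miR-208a-3p. Alternatives were the pseudocount, filter, scaling, trend, library weights, replicate block, rows and libraries left out. Sequences and hairpin positions are from RefSeq (GRCm38.p6), host genes from GENCODE M21. Plots were drawn with matplotlib 3.10.9 in Python 3.11.15.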

Additional observations from a re-analysis of the deposited data

Results flagged for a closer look

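Among 18 groups of 6 values searched (5 levels and 4 ratios in each genotype), 1 library lay far from the others of its group, where chance flags about 1 in 20, or 0.9 here. The log2 ratio of miR-214-3p to miR-214-5p was 3.07 in db/db library 4 and at least 4.55 in the other db/db libraries, a gap of 0.674 of the group's range. This library had the highest miR-214-5p value of its genotype, 53.0 RPM from 41 reads.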

How the results depend on the processing

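No member passed under any of the limma, edgeR or DESeq2 settings run. Leaving out 1 library gave log2 fold changes of -0.47 to -0.29 for miR-199a-5p, 0.01 to 0.12 for miR-199a-3p, -0.42 to -0.17 for miR-199b-5p, 0.30 to 0.58 for miR-214-3p and -1.34 to -0.76 for miR-214-5p. miR-199a-3p changed sign after quantile normalization (-0.0095). The lowest adjusted p of a member was 0.0784, for miR-214-3p by edgeR with the replicate block. With 1 library left out, the log2 difference ranged from 0.36 to 0.52 for miR-199a-3p over miR-199a-5p, 1.14 to 1.87 for the miR-214 arms, -0.16 to 0.054 for miR-199a-5p over miR-199b-5p and 0.21 to 0.50 for miR-214-3p over miR-199a-3p. Without WT 4 and db/db 6 the miR-214 arms stood at 1.75.

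The number of miRNAs called over all rows, 1 by limma as planned, was 0 at either other pseudocount (0.1, 10), at stricter filters of 10 and of 100 RPM, unfiltered, quantile normalized, untrended, over only named rows and with WT 4 and db/db 6 both dropped. Median-of-ratios scaling gave 2, edgeR 3 and DESeq2 8. Dropping single libraries gave 0 to 7, with 6 for WT 1 and for WT 3, 3 for db/db 4, 7 for db/db 5, 1 for db/db 6 and 0 for the rest. The cause was not tested. With the replicate block limma called 9 and edgeR, an alternative chosen after seeing the data, 11. The unadjusted p for the arm difference of miR-199a, 0.42, was then above 0.05 (exact sign-flip p = 0.0625). Libraries of the same number shared only that number: their deviations correlated from -0.05 to 0.12, and 1 of 6 WT libraries correlated best with its own. Depth limits miR-214-5p most, at 4 to 69 reads a library.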
